A study of Homo sapiens with 3 samples.

Results

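Oncofetal genes are switched on in embryonic or fetal tissue, are mostly silent in adult tissue and often return in tumours. The 9 genes described here are the messenger RNA-binding proteins IGF2BP1, IGF2BP2 and IGF2BP3, the RNA-binding protein LIN28B, the chromatin proteins HMGA1 and HMGA2, and IGF2, H19 and DLK1, which are imprinted genes of fetal growth. They were looked up by symbol in a table of 17595 endogenous genes. Of the 9 genes, 7 had a row and 6 had at least 10 counts summed over all libraries. H19 and DLK1 had no row. The table lists only genes with 1 count or more, and a gene that is missing from it gets no upper limit here.

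The study has 1 group, HEK293 cells, an adenovirus-transformed line derived from human fetal kidney, grown in DMEM with glutamine and 10% fetal calf serum. No treatment, genotype or time point was compared. Each of 3 libraries was made from 1000 lysed cells with spiked control RNA, and a share equal to 100 cells was amplified in 18 PCR cycles. Tags were taken from the 5′ ends of RNAs primed at the poly(A) tail. The columns of the table carry the indices 20, 21 and 23 and no replicate number, so the libraries are called by these indices. Nothing in the labels says that they came from separate cultures, so every spread and p-value covers variation among these libraries alone, and it may be technical.

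Endogenous counts per library lay between 1330877 and 1545594, and levels are given as counts per 1000000 endogenous counts (CPM). 1 count equals 0.647 to 0.751 CPM. All 8 genes taken as markers of the line, from VIM and KRT18 to the neurofilament genes NEFM and NEFL, averaged at least 10 CPM. Of all genes with a row, 44.6% did. The sum of the 8 markers lay between 641.0 and 654.5 CPM in the 3 libraries. This was no test of identity, since the lists were chosen with earlier results of these data known. Of other cell types, 0 of 4 pluripotent cell markers (POU5F1, NANOG, LIN28A and DPPA4), 0 of 4 blood markers and 0 of 2 endothelial markers had a row, 1 of 3 hepatocyte markers had a row (APOA1, 4 counts in all), and the 4 fibroblast markers summed to at most 5.26 CPM. In bulk libraries, fewer cells that express a gene and less RNA per cell cannot be told apart.

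The members are linked by a circuit known from other work. LIN28 proteins bind the precursors of let-7 microRNAs and block their maturation, and mature let-7 represses messengers that carry matching sites in their 3′ untranslated regions (UTRs), among them those of HMGA2, of the IGF2BP genes and of LIN28B itself. The IGF2BP proteins bind and stabilise messengers such as that of MYC, while HMGA proteins bend AT-rich DNA and open chromatin. IGF2 is a fetal growth factor, H19 is a non-coding RNA from the neighbouring locus, and DLK1 is a membrane protein of the Notch ligand type that holds back differentiation.

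The let-7 sequences are shown because matches to their seed lie in the messengers of most members. RefSeq lists 9 mature let-7 and miR-98 sequences from the 5′ arm, and all have the same seed, bases 2 to 8, given in capitals. The 5 shown are those whose hairpin genes had a row in the table.
hsa-let-7a-5p: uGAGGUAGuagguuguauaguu
hsa-let-7d-5p: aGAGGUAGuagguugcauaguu
hsa-let-7f-5p: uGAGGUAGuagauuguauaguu
hsa-let-7i-5p: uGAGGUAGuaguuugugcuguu
hsa-miR-98-5p: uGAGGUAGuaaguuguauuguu

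These hairpin genes were near the level of 1 count: MIR98 had 5 counts summed over the libraries, MIRLET7D and MIRLET7I had 4 each, MIRLET7F2 had 3 and MIRLET7A1 had 2. They were looked up after the table had been seen. Mature microRNAs have no poly(A) tail and were not measured by this assay.

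LIN28 proteins recognise the letters GGAG in the precursor. Of 12 let-7 family hairpins in RefSeq (GRCh38.p14), 9 hold GGAG after the 5′ arm, which is 75.0%, against 18.1% of 786 other human hairpins with an annotated 5′ arm. Only the RNA strand was searched, from the end of the 5′ arm on, so GGAG inside that arm was not counted. The first match is in capitals in the precursors of 2 of the listed genes, one at chr9:94175957-94176036 on the plus strand and the other at chr12:62603686-62603769 on the plus strand.
MIRLET7A1: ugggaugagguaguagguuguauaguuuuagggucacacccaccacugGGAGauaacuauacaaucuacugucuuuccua
MIRLET7I: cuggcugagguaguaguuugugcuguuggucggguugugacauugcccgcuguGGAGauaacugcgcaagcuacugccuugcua

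The DNA letters CTACCTC pair with the seed. They were searched on the transcript strand in the 3′ UTR of the longest principal transcript of each coding gene in GENCODE v29. Of the 7 members with a row, 6 held the match at least once, against 9.86% of 12437 coding transcripts whose gene had a row. HMGA2, IGF2BP1 and LIN28B held 4 matches each, and IGF2BP2, IGF2BP3 and HMGA1 held 1 each. IGF2 and DLK1 held 0. Longer UTRs held a match more often. Among UTRs of 80% to 125% of the length of that of HMGA2 (3003 bases), 14.8% held a match and 0.0994% held 4 or more. For IGF2BP1, with 6206 bases, these shares were 30.1% and 0.556%, and for LIN28B, with 4549 bases, they were 23.7% and 0.233%. At least 1 match was held by 11.7% of UTRs in the same length range around that of IGF2BP2, by 12.0% for IGF2BP3 and by 8.58% for HMGA1. A match is a description of the letters and not a measured site. Those that are followed by an A, the stronger class of let-7 match in other work, are given with the match in capitals and the GRCh38 position of the printed stretch.
IGF2BP1, chr17:49051061-49051083, plus strand: tgtgtgcgaagtaaaCTACCTCa
IGF2BP1, chr17:49053698-49053720, plus strand: cagcagtgctagtaaCTACCTCa
IGF2BP1, chr17:49054352-49054374, plus strand: gtataaatggattaaCTACCTCa
IGF2BP2, chr3:185644220-185644242, minus strand: aacacacagaagaagCTACCTCa
IGF2BP3, chr7:23311795-23311817, minus strand: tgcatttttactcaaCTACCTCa
LIN28B, chr6:105078812-105078834, plus strand: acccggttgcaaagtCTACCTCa
LIN28B, chr6:105081421-105081443, plus strand: gtttacagcaaaaggCTACCTCa
HMGA2, chr12:65963298-65963320, plus strand: gccaacgttcgatttCTACCTCa
The single match of HMGA1, at chr6:34245829-34245851 on the plus strand, is followed by a T.

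All 3 IGF2BP genes were counted in every library, in the order IGF2BP1, IGF2BP2 and IGF2BP3. IGF2BP1 (ENSG00000159217.9), on the plus strand of chromosome 17, binds messengers in the cytoplasm and carries the beta-actin messenger to the cell edge. It had 119, 86 and 170 counts in libraries 20, 21 and 23, which are 80.6, 64.6 and 110.0 CPM. Library 23 was the highest and library 21 the lowest, and their 95% Poisson intervals, 94.1 to 127.8 and 51.7 to 79.8 CPM, did not overlap. These libraries were picked as the extremes, and the share of all genes with such a gap was not computed. The mean was 85.1 ± 23.01 CPM (SD, n = 3 libraries).

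IGF2BP2 (ENSG00000073792.15), on the minus strand of chromosome 3, is the member of the family that adult tissue keeps. It had 99, 76 and 98 counts in libraries 20, 21 and 23, or 67.1, 57.1 and 63.4 CPM. The intervals of all 3 libraries overlapped, and the mean was 62.5 ± 5.05 CPM (SD, n = 3). IGF2BP3 (ENSG00000136231.13), on the minus strand of chromosome 7, is a fetal form that many carcinomas make. It had 25, 31 and 35 counts, or 16.9, 23.3 and 22.6 CPM, with overlapping intervals and a mean of 20.96 ± 3.50 CPM (SD, n = 3).

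Within the family, IGF2BP1 took 49.9% ± 5.83 of the counts, IGF2BP2 37.5% ± 4.51 and IGF2BP3 12.6% ± 3.04 (SD, n = 3). The order was the same in each library. The share of IGF2BP1 was 49.0%, 44.6% and 56.1% in libraries 20, 21 and 23, and the share of IGF2BP2 was 40.7%, 39.4% and 32.3%.

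LIN28B (ENSG00000187772.7), on the plus strand of chromosome 6, was counted in every library while its paralog LIN28A had no row. LIN28B had 54, 51 and 60 counts in libraries 20, 21 and 23, or 36.6, 38.3 and 38.8 CPM. These values lay close together, and the mean was 37.9 ± 1.17 CPM (SD, n = 3).

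HMGA1 was the most counted member. HMGA1 (ENSG00000137309.19), on the plus strand of chromosome 6, encodes a small AT-hook protein of dividing cells. It had 429, 413 and 527 counts in libraries 20, 21 and 23, or 290.7, 310.3 and 341.0 CPM. Library 23 was the highest, all intervals overlapped, and the mean was 314.0 ± 25.3 CPM (SD, n = 3). At this level HMGA1 exceeded 96.9% of all genes with a row.

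HMGA2 (ENSG00000149948.13), on the plus strand of chromosome 12, is a paralog of embryonic tissue that is largely silent in the adult. It had 70, 82 and 99 counts in libraries 20, 21 and 23, or 47.4, 61.6 and 64.1 CPM. Library 20 was the lowest but its interval overlapped those of the others, and the mean was 57.7 ± 8.98 CPM (SD, n = 3). HMGA2 made up 15.5% ± 1.30 of the counts of both HMGA genes and HMGA1 the rest, with little movement between libraries. HMGA1 has processed pseudogenes that could share its reads. Of 8 looked for, HMGA1P4 had 2 counts in all and HMGA1P2 had 1, and the others had no row.

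IGF2 (ENSG00000167244.19), on the minus strand of chromosome 11, was at the edge of detection. It had 0, 2 and 0 counts in libraries 20, 21 and 23, a mean level of 0.501 CPM. A count of 0 allows up to 3 counts as a one-sided 95% limit, which is 2.03 CPM in library 20 and 1.94 CPM in library 23 and lies below the upper end of a 2-sided interval as used for the other members. The readthrough gene INS-IGF2 and the antisense gene IGF2-AS had no row. Intervals and limits cover counting error only. They take each count as 1 molecule, which the sources used here do not state.

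**Figure D1:**
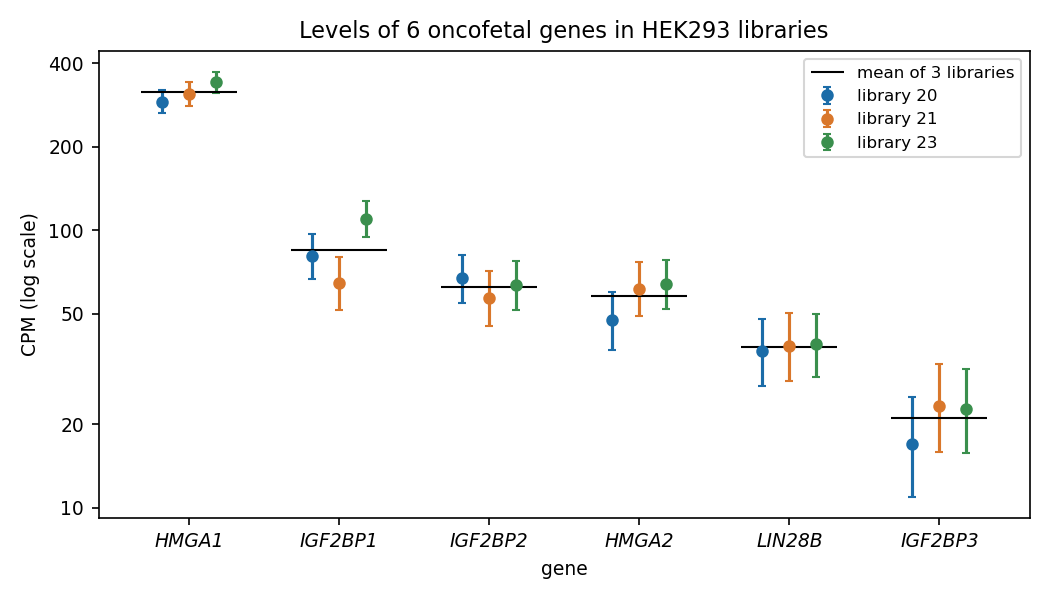
CPM on a log axis for the 6 members with at least 10 counts, ordered by mean. Points are libraries 20, 21 and 23 with 95% Poisson intervals, and black lines are means of the 3 libraries, which run down from 314.0 CPM for HMGA1 to 20.96 CPM for IGF2BP3.

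The order of the members was tested within libraries. For each pair, the log2 ratio of counts was taken in every library, so that library size cancels. The ratio of each of 11423 genes to the lower member of the pair was fitted with limma, a linear model that shares variance between genes, and p-values were adjusted by Benjamini-Hochberg over all of these genes. Differences between neighbours in the order are as follows.

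HMGA1 exceeded IGF2BP1 by 1.85, 2.26 and 1.63 on the log2 scale in libraries 20, 21 and 23, a mean of 1.91 ± 0.32 or 3.76-fold (SD, n = 3, limma adjusted p = 2.2e-10). In that fit 12.4% of all genes were higher than IGF2BP1 and 76.3% lower, 88.7% in both directions. IGF2BP1 exceeded IGF2BP2 by 0.26, 0.18 and 0.79, a mean of 0.41 ± 0.33 or 1.33-fold (SD, n = 3, limma adjusted p = 0.00051), where 19.2% of all genes were higher than IGF2BP2 and 74.7% lower, 93.9% together. Library 23 decided this call, since the ratio was 0.22 without it (limma adjusted p = 0.23). The call was also lost in limma without a variance trend (adjusted p = 0.061).

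IGF2BP2 and HMGA2 did not differ past the threshold. Their log2 ratio was 0.50, -0.11 and -0.01 in libraries 20, 21 and 23, a mean of 0.12 ± 0.33 (SD, n = 3, limma adjusted p = 0.52). In the fit to HMGA2, 90.2% of all genes differed from it in either direction. With the variances of both genes, the 95% interval of this difference was -0.15 to 0.40. It rests on a normal quantile and on variance shared between genes, and the value of library 20 lay above it. Larger differences in either direction are therefore not excluded. Without library 20 the sign turned, to -0.062.

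HMGA2 exceeded LIN28B by 0.37, 0.68 and 0.72, a mean of 0.59 ± 0.19 or 1.505-fold (SD, n = 3, limma adjusted p = 1.2e-06), in a fit where 28.7% of all genes were higher than LIN28B and 92.1% differed in either direction. LIN28B exceeded IGF2BP3 by 1.10, 0.71 and 0.77, a mean of 0.86 ± 0.21 or 1.81-fold (SD, n = 3, limma adjusted p = 4.4e-05), in a fit where 39.6% of all genes were higher than IGF2BP3.

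Over all 15 pairs of these 6 members, 14 passed the threshold, each with the same direction in 3 of 3 libraries. Shares of called genes were high in every fit, between 82.6% and 98.7% in both directions together, and a called pair is thus usual. The p-values of these fits are too small, since all ratios to a member hold the same counts of it. A fit with the variances of both genes, which has this fault in part, gave the same call in 15 of 15 pairs. It uses the same counts, so this is not independent support. On simulated counts, the limma ratio fit called 7.79% of genes set equal to a member on average, and 71.0% in its worst single fit. For the fit with both genes' variances these shares were 5.33% and 51.0%.

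**Figure D2:**
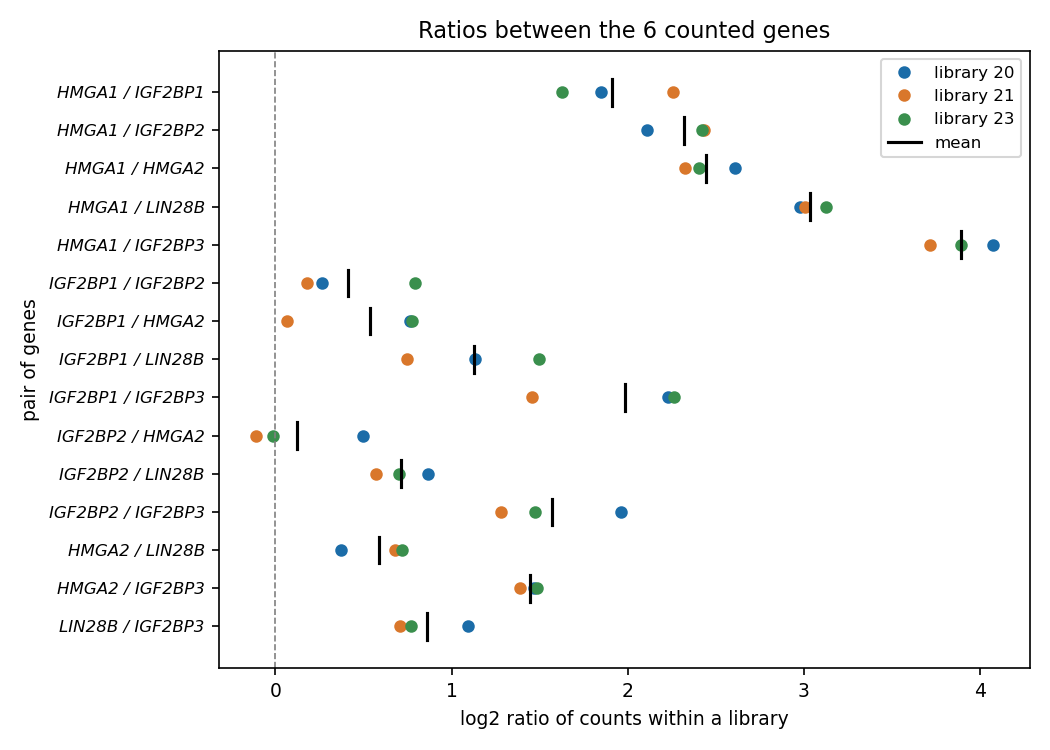
Log2 ratio of counts for each of the 15 pairs of members, with the more abundant gene first. Points are single libraries and bars are means. The points of IGF2BP2 over HMGA2 lie on both sides of 0, and those of every other pair lie on the right of it.

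Paralogs of a family that are not neighbours in the order differed by several fold. HMGA1 exceeded HMGA2 5.45-fold, by 2.61, 2.33 and 2.41 on the log2 scale in libraries 20, 21 and 23. IGF2BP1 exceeded IGF2BP3 3.95-fold, by 2.23, 1.46 and 2.26, and IGF2BP2 exceeded IGF2BP3 2.97-fold, by 1.964, 1.28 and 1.47. HMGA1 stood 8.20-fold above LIN28B, with 2.98, 3.01 and 3.12.

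**Figure D3:**
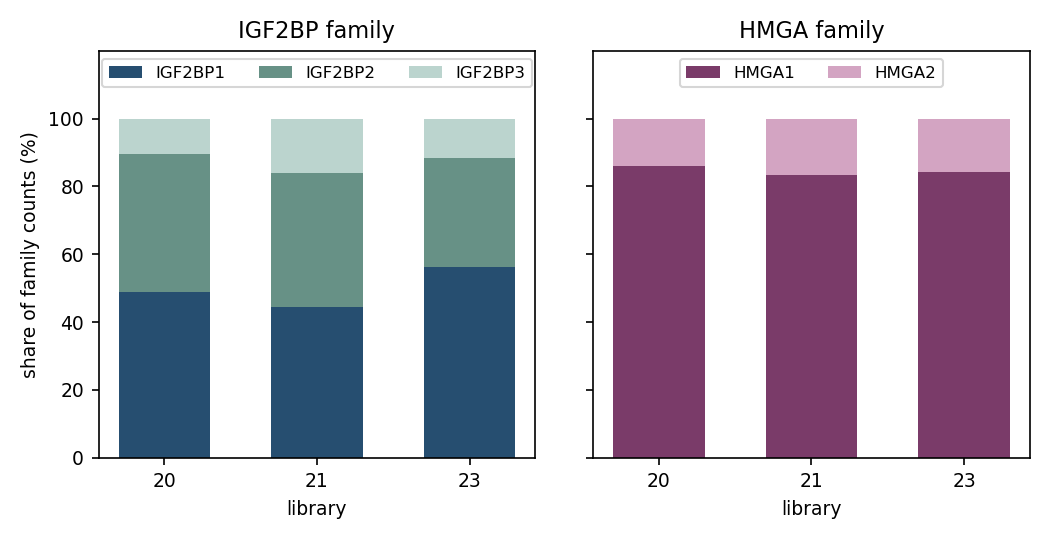
Share of the counts of the IGF2BP family (left) and of the HMGA family (right) held by each gene in libraries 20, 21 and 23. IGF2BP1 holds between 44.6% and 56.1% of its family, and HMGA1 holds between 83.4% and 86.0% of its own.

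These ratios compare tags. A tag marks the 5′ end of an RNA, so by design the tags from 1 RNA do not depend on its length, and CPM was not divided by length. How well each RNA was captured was not measured. The principal transcripts differ in length, from 2159 bases for HMGA1 to 8274 bases for IGF2BP1. Divided by length, the levels were 145.4 CPM per kilobase for HMGA1, 17.0 for IGF2BP2, 12.9 for HMGA2, 10.3 for IGF2BP1, 6.89 for LIN28B and 4.93 for IGF2BP3. On that scale IGF2BP1 ranked 4, after IGF2BP2 and HMGA2, and the other 5 kept their order. Whether long RNAs gave fewer tags was not tested.

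On the scale of the spiked RNA, added at 20000 molecules per cell, HMGA1 stood at 164.7 ± 20.6 molecules per cell, IGF2BP1 at 44.9 ± 14.5 and IGF2BP2 at 32.8 ± 3.69 (SD, n = 3). HMGA2 stood at 30.2 ± 5.41, LIN28B at 19.9 ± 1.38 and IGF2BP3 at 11.0 ± 1.95 molecules per cell. This scale takes the members to be captured as well as the average spike, which was not tested.

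IGF2BP1 was the member that differed between libraries of the same cells. A 2-sided exact binomial test of 2 libraries, adjusted over 11424 genes and 3 pairs of libraries, called 64 genes, or 0.56% of those tested. The shares by library pair, in either direction, were 0.105% between 20 and 21, 0.385% between 20 and 23 and 0.289% between 21 and 23. Among the 6 members it called IGF2BP1 alone, which was higher in library 23 than in library 21 by 0.76 on the log2 scale (exact binomial test, adjusted p = 0.022). Its adjusted p between libraries 23 and 20 was 0.47 and between 21 and 20 was 0.85 (exact binomial test). The p-values of the other members were between 0.53 and 1.0 after adjustment. This test compares libraries, not conditions, and covers counting error only. It takes each count as 1 molecule, as does the spread from counting alone given below.

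The SD of IGF2BP1 was 27.0% of its mean, against 9.02% from counting alone. Of 2352 genes with 0.5 to 2 times its level, 99.0% had a smaller spread. LIN28B was at the other end, with an SD of 3.09% of its mean, against 13.5% from counting alone. Of 3670 genes of similar level, 3.90% had a smaller spread. HMGA2 (15.6%), IGF2BP3 (16.7%), IGF2BP2 (8.07%) and HMGA1 (8.07%) lay inside the range of similar genes, where between 35.1% and 76.2% of genes had a smaller spread.

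**Figure D4:**
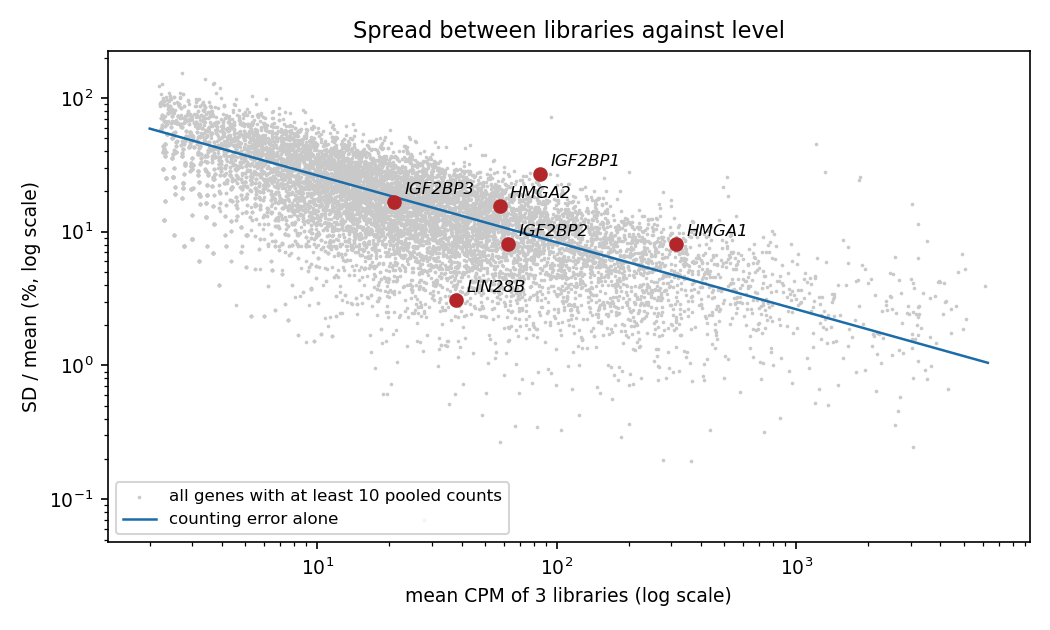
Spread between libraries (SD over mean, in percent) against mean CPM, both on log axes, for all genes with at least 10 pooled counts (grey) and the 6 members (red). The blue line is the spread that counting alone gives. IGF2BP1 lies above the line, at 27.0%, and LIN28B below it, at 3.09%.

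Genes of similar level and library pattern were found by the distance between log2(CPM + 0.5) values over the 3 libraries. Nearest to HMGA1 were MAZ, a zinc finger transcription factor (323.9 ± 36.6 CPM, distance 0.10), and SRM, the spermidine synthase (310.0 ± 39.5 CPM, distance 0.11). Nearest to IGF2BP1 were HUWE1, a ubiquitin ligase (86.6 ± 18.3 CPM, distance 0.16), and RAD21, a cohesin subunit (85.4 ± 17.2 CPM, distance 0.17). Nearest to IGF2BP2 were DUS1L (63.2 ± 6.19 CPM, distance 0.04) and ACTR6 (61.6 ± 5.30 CPM, distance 0.05). With 3 libraries of 1 group, this is likeness of level for the most part.

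Genes that work with the members were described by lists, beside all genes with a row, of which 44.6% averaged at least 10 CPM with a median of 7.16 CPM. In none of the lists did a tested gene differ between libraries in the exact binomial test, which called 0.56% of all genes tested. At that share, lists of this size would hold few such genes or none. Partners that IGF2BP proteins meet on messengers were abundant: 13 of 14 averaged at least 10 CPM, with a median of 161.6 CPM. PABPC1, the poly(A)-binding protein, had 616.4 ± 12.5 CPM, YBX1, a cold shock protein, 488.4 ± 42.5 CPM, HNRNPD 290.4 ± 25.8 CPM and HNRNPU 271.0 ± 22.5 CPM (SD, n = 3). Of the 14 partners, 9 were higher and 3 lower than IGF2BP1 in the limma fit, where 12.4% and 76.3% of all genes were.

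Of 11 messengers known as IGF2BP targets, 7 averaged at least 10 CPM with a median of 25.5 CPM. ACTB had 3388 ± 118.2 CPM, CTNNB1 184.8 ± 10.4 CPM and MYC 173.1 ± 1.47 CPM (SD, n = 3). CD44, a surface receptor among these targets, had 2 counts in all libraries together.

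In the let-7 maturation list, 11 of 14 genes had a row and 8 averaged at least 10 CPM, with a median over all 14 of 21.3 CPM. KHSRP, which aids let-7 processing, had 131.2 ± 28.4 CPM, PRKRA 99.7 ± 9.57 CPM, the export receptor XPO5 64.1 ± 5.10 CPM and the endonuclease DICER1 46.9 ± 5.34 CPM (SD, n = 3). The enzymes that tail and degrade let-7 precursors were lower, with 23.3 ± 1.56 CPM for ZCCHC11, 5.09 ± 2.65 CPM for ZCCHC6 and 6.41 ± 0.61 CPM for DIS3L2. Relative to LIN28B, 4 of 11 tested genes of this list were higher and 6 lower in the limma fit. Of all genes, 28.7% were higher and 63.4% lower. The 11 include these tailing and degrading enzymes. LIN28A, MIRLET7BHG and MIRLET7DHG had no row.

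Of 24 messengers known as let-7 targets, some of which are on the lists above, 17 averaged at least 10 CPM, with a median of 18.1 CPM. After MYC came NRAS at 88.3 ± 6.86 CPM and CCND2 at 49.7 ± 5.11 CPM (SD, n = 3). Of 21 tested against HMGA2, 2 were higher and 14 lower, while 19.2% and 71% of all genes were. MYCN had no row.

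Of 12 HMG box and HMGN genes tested, 7 were higher and 2 lower than HMGA2, while 19.2% and 71% of all genes were. Of 13 on the list, 12 averaged at least 10 CPM with a median of 98.9 CPM. HMGB1 had 1089 ± 53.1 CPM, HMGN2 1010.0 ± 57.9 CPM, HMGN1 530.9 ± 10.9 CPM and HMGN3 398.3 ± 11.4 CPM (SD, n = 3), and these 4 were the genes of the list that were higher than HMGA1. Another 6 of 12 were lower. Of all genes, 4.07% were higher and 94.6% lower than HMGA1. HMGB and HMGN genes have many processed pseudogenes, so the split of their reads is uncertain.

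Receptors of the insulin-like growth factors were counted, while the ligands had 2 counts or no row. The median over the 22 genes of this axis was 2.42 CPM, and over the 14 with a row it was 13.56 CPM. Of the 22 genes, 8 averaged at least 10 CPM, all of them among the 14 with a row. They were led by the binding protein regulator STC2 at 20.7 ± 3.26 CPM, the adaptor IRS4 at 19.4 ± 5.06 CPM, the receptor IGF1R at 18.2 ± 0.59 CPM and the binding protein IGFBP2 at 17.8 ± 2.78 CPM (SD, n = 3). The clearance receptor IGF2R had 27, 17 and 30 counts in libraries 20, 21 and 23, or 16.8 ± 3.55 CPM, while IGF2 had 2 counts in all, and IGF1 and INS had no row. None of the 12 tested genes of the axis was higher than IGF2BP3 in the limma fit and 5 were lower, while 39.6% and 43% of all genes were.

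Imprinted genes other than the members were mostly without a row. Of 26, 12 had a row, and 6 of these 12 averaged at least 10 CPM. GNAS had 386.9 ± 18.7 CPM, UBE3A 45.2 ± 7.16 CPM, PHLDA2 38.0 ± 7.41 CPM and PLAGL1 33.4 ± 2.80 CPM (SD, n = 3). CDKN1C and KCNQ1OT1, which lie near IGF2 and H19 on chromosome 11, had 6.87 ± 0.84 and 7.03 ± 2.24 CPM. MEG3, MEG8, RTL1 and DIO3, which share the imprinted domain of DLK1, had no row. Among Notch ligands and receptors, the DLK1 paralog DLK2 had 3, 4 and 3 counts in libraries 20, 21 and 23. The Notch target genes HEY1 and HES1 had 219.2 ± 21.01 and 111.1 ± 16.3 CPM, the ligand DLL3 48.9 ± 5.93 CPM and NOTCH2 39.1 ± 7.28 CPM, and 6 of 12 genes of that list averaged at least 10 CPM.

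Pluripotency genes were mostly low or without a row. Other oncofetal genes with a row reached 10 CPM about as often as all genes with a row. Of 14 pluripotency genes, 5 had a row and 1 averaged at least 10 CPM, DNMT3B at 18.9 ± 4.95 CPM (SD, n = 3). SOX2 had 6.54 ± 2.46 CPM, TERT 2.03 ± 1.04 CPM and UTF1 1.90 ± 1.66 CPM. Of 24 other oncofetal genes, 13 had a row. Of all genes with a row, 44.6% averaged at least 10 CPM, and of these 13 oncofetal genes 6 did. They were led by PKM at 581.5 ± 18.9 CPM, BIRC5 at 318.2 ± 15.6 CPM, the growth factor MDK at 215.6 ± 7.03 CPM and the membrane proteoglycan GPC3 at 28.9 ± 6.35 CPM. PKM and BIRC5 are also made by dividing cells in general. AFP, CEACAM5 and the fetal globin genes HBG1 and HBG2 had no row.

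**Figure D5:**
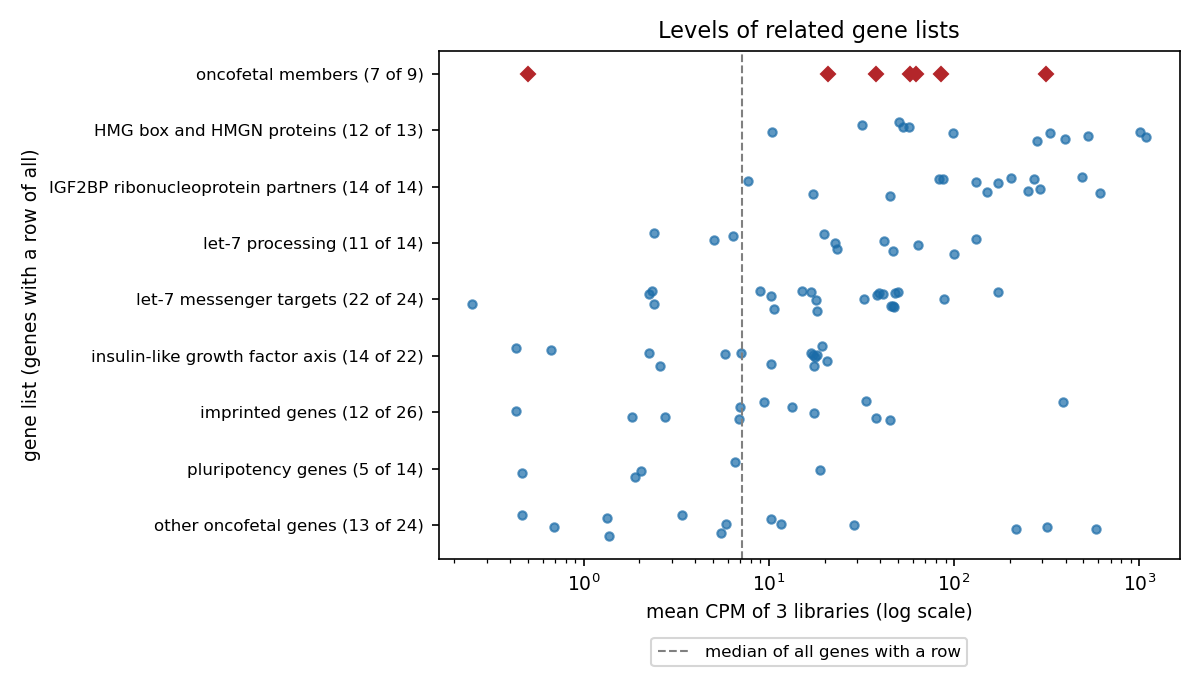
Mean CPM on a log axis for the 7 members with a row (diamonds) and for the genes of 8 related lists (circles, spread vertically for legibility). The number with a row is given beside each list. The dashed line is the median of all genes with a row, 7.16 CPM, and 6 of the 7 members lie to its right.

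Neighbouring and overlapping genes could share reads with the members, since the use of strand in counting is not given in the sources used here. In GENCODE v29 the antisense genes RPSAP52, LIN28B-AS1 and AC091133.2 cover the starts of HMGA2, LIN28B and IGF2BP1, and none of them had a row. Genes were looked up by symbol, so a row under an older name would be missed, here and elsewhere. IGF2BP3 shares 1521 bases at its 3′ end with MALSU1, a mitochondrial ribosome assembly factor on the other strand, which had 632 counts in all. The stretch does not hold the start of IGF2BP3, where its tags are taken. The part of such reads in the values was not tested.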

How the data were processed

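The authors deposited 1 table of raw counts per gene for 3 HEK293 libraries, with 17595 endogenous rows and 80 spiked control RNAs. The build was hg19 (GRCh37), with STAR 2.4.0a and cutadapt 1.2.1 among the tools, per the submitters' processing notes. Not given in the sources used here are the counting tool, its annotation, the use of strand and whether molecular identifiers were collapsed, and a count may thus stand for a read or for a molecule.

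The members and gene lists were chosen with earlier results of these data known. CPM was taken over endogenous counts. Genes named are the members, up to 4 genes of highest CPM per list, the 2 nearest genes of the 3 most counted members, and the let-7 maturation genes, of which some are not reported here. Others (NEFM, NEFL, APOA1, IGF2R, IGF1, INS, CD44, MYCN, CDKN1C, KCNQ1OT1, the genes of the DLK1 domain, DLK2, SOX2, TERT, UTF1, AFP, CEACAM5, HBG1, HBG2, MALSU1 and the let-7 hairpin genes) were chosen after their values were seen.

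Ratios used a pseudocount of 0.5 per gene, genes with at least 10 pooled counts and limma's moderated test with a variance trend, at 0.05. Tested on simulated counts, this fit called more genes set equal to a member than its threshold allows, the fit with both genes' variances came nearer to it on average, and both found 2-fold differences. In the worst single simulated fits, both called a large share of equal genes. The ratio simulation drew all genes with 1 common dispersion. It was scored on equal genes and 2-fold differences only, so it does not cover smaller ratios. Alternatives covered filters, pseudocount, normalization with TMM (edgeR) and DESeq2 size factors, spikes and leaving out each library. Tools were Python 3.11.15, scipy 1.17.1, pandas 2.3.3, R 4.3.3, limma 3.58.1, edgeR 4.0.16 and DESeq2 1.42.0. Sequences came from RefSeq (GRCh38.p14) and GENCODE v29 (GRCh38), which is not the authors' build. In RefSeq, 12 let-7 family hairpins were found by symbol.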

Additional observations from a re-analysis of the deposited data

How the results depend on the processing

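Levels of the 6 members moved by less than their SD under TMM, median-of-ratios and spike scaling. These scalings keep the average library size nearly the same, so a mean over the libraries could hardly move. The small shift is therefore no test of the levels. Leaving out 1 library at a time gave 300.5 to 325.6 CPM for HMGA1, 72.6 to 95.3 for IGF2BP1, 60.3 to 65.2 for IGF2BP2, 54.5 to 62.8 for HMGA2, 37.5 to 38.6 for LIN28B and 19.8 to 22.97 for IGF2BP3.

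Of the 5 ratios between neighbours, HMGA1 over IGF2BP1, HMGA2 over LIN28B and LIN28B over IGF2BP3 kept direction and call in all 8 settings run with a test, with adjusted p at most 0.012, 0.0082 and 0.017. Without single libraries they ranged over 1.74 to 2.05, 0.53 to 0.70 and 0.74 to 0.93. IGF2BP1 over IGF2BP2 was 0.41 without a variance trend (limma adjusted p = 0.061) and 0.22 to 0.53 without single libraries, losing the call without library 23. IGF2BP2 over HMGA2 lay between -0.062 (without library 20, limma adjusted p = 0.64) and 0.24 without single libraries. Divided by transcript length, a setting added after the data were seen, HMGA1 over IGF2BP1 was 3.85, IGF2BP1 over IGF2BP2 -0.75, IGF2BP2 over HMGA2 0.40 (0.12 undivided), HMGA2 over LIN28B 0.89 and LIN28B over IGF2BP3 0.48, by construction.

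The count of genes that differ between libraries was 64, and it was 114 with median-of-ratios factors, 250 with spike totals and 8 to 59 without single libraries, where only 1 pair of libraries is left. The cause of the higher counts was not tested. IGF2BP1 kept its call between libraries 23 and 21 in all 7 settings that hold both, with an adjusted p of 0.00052 to 0.034.

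No paired analysis was possible because there is 1 group and the columns carry no replicate number. IGF2BP3 rests on 25 to 35 counts per library, which limits its ratios.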
